A study of Rattus norvegicus with 12 samples.

Results

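Messenger RNA of the spinal cord was compared with that of the cerebellum in young male Wistar rats, on 8 of the 12 arrays of the series. The arrays were chosen by their titles, 4 that begin with the words spinal cord and 4 that begin with cerebellum. The study gave the rats acrylamide, a vinyl monomer known to damage long axons, by oral gavage at 30 mg/kg each day for 21 days, or saline, which 1 label calls solvent. The rats were 25 days old at the start per the sample labels and 3 weeks old per the series text. Each tissue had 2 saline and 2 acrylamide arrays, and every array carried RNA pooled from 2 rats. The labels name no mutant allele, transgene or other agent, and the 4 arrays not used here were of sciatic nerve. A replicate is therefore a pool of 2 rats, and p-values rest on the spread between pools. For the difference between the tissues, that spread also holds any dependence of the difference on treatment. The labels do not settle whether a cord pool and a cerebellum pool came from the same rats, nor how long after the last dose the tissue was taken.

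The cerebellum and the spinal cord hold different neurons beside shared kinds of glia. The cerebellar cortex is built from a very large number of small glutamatergic granule neurons, whose parallel fibres contact the GABAergic Purkinje cells, and from Bergmann glia that ensheathe these synapses. The spinal cord holds cholinergic motor neurons, peptide-rich dorsal horn interneurons and inhibitory neurons that use glycine as well as GABA, and much of its volume is white matter, in which oligodendrocytes wrap long axons in myelin.

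Values are deposited signal intensities in arbitrary units. Signals of single arrays are given in the order saline replicates 1 and 2, then acrylamide replicates 1 and 2. Means are ± SD over n = 4 arrays of a tissue, so that the SD also holds any effect of treatment. Differences are spinal cord minus cerebellum on the log2(signal + 16) scale ± SE from limma with treatment as a block, so a positive value is higher in the cord, and the added 16 understates the difference of a dim gene. A probe set was tested where its mean signal was above 110 in either tissue, and called at a Benjamini-Hochberg adjusted p under 0.05 with at least a 2-fold fitted difference. Signals of the dimmer tissue below 110 were raised to 110 for the fold, which is then a lower bound, written "at least". In pieces of tissue, fewer cells of a type and less RNA per cell cannot be told apart, which holds for every result that follows. A level of 1 probe set is set beside the same probe set in the other tissue only. The gene lists held 866 memberships in 29 lists, of which 622 (583 genes, 37 of them in over 1 list) passed the filter, 114 were under it and 130 had no probe set with that symbol. A gene that passed only through its brighter tissue could hardly fail to differ, so the counts and medians of the lists describe them and support nothing further. Of the genes named below, Barhl1, Calb2, Dynlrb2, Foxj1, Gabrb1, Gfap, Gria2, Grm8, Hoxa11, Hoxb3, Hoxd1, Hoxd3, Ina, Myrf, Neurod2, Nkx6-2, Nmu, Olig1, Oprk1, Pvalb, Slc18a3, Slc32a1, Sox10, Sulf1, Tmem212, Uncx, Vcan and Zic2 were chosen after their values were seen.

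The 4 markers of the tissues' main cells lay where their labels place them. Gabra6, a GABA receptor subunit of cerebellar granule neurons, had signals of 13645, 13500.3, 12267 and 12577 on the cerebellum arrays and 0.945, 1.701, 10.9 and 1.77 on the cord arrays. Pcp2, a G protein regulator of Purkinje cells, had signals of 12945, 13646, 13242 and 13909 in the cerebellum and 73.9, 54.2, 73.9 and 89.6 in the cord. All 4 arrays of 1 tissue lay above all 4 of the other for both genes, and every cord array was under the filter's signal. Gabra6 was at least 118-fold higher in the cerebellum (log2 difference -9.38 ± 0.13, limma adjusted p = 1.87e-12) and Pcp2 at least 122-fold (-7.26 ± 0.09, 1.86e-12). Chodl, a C-type lectin found in fast motor neurons, had signals of 13.1, 61.2, 46.04 and 33.6 in the cerebellum and 3731, 4502, 3873 and 4035 in the cord. In the cord it was at least 36.6-fold higher (6.30 ± 0.24, limma adjusted p = 1.05e-09). Mog, a surface protein of central myelin, was well measured in both tissues, at 1934, 2106, 1547 and 1657 in the cerebellum and 6203, 6313, 6687 and 7004 in the cord. Mog was 3.64-fold higher in the cord (1.85 ± 0.08, limma adjusted p = 4.42e-09), again without overlap. In a fit over all 12 arrays, which lets the spread of the nerve arrays in, its adjusted p in limma was 0.0563.

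The promoters of Gabra6, Chodl and the myelin gene Mag are shown as the stretches next to the starts of a granule neuron, a motor neuron and an oligodendrocyte gene. Each is the 250 bases before the start of the gene, 5′ to 3′ on the gene's own strand, from RefSeq, assembly GRCr8. Gabra6 lies at chr10:27327235-27327484 on the minus strand, Chodl at chr11:31140865-31141114 on the plus strand and Mag at chr1:95291045-95291294 on the minus strand. Capitals mark matches on either strand to 3 short motifs, CAGATG (an E-box of the kind bound by NeuroD factors), TTGGCA (a short NFI motif) and ACAAAG (bound by SOX factors).
Gabra6: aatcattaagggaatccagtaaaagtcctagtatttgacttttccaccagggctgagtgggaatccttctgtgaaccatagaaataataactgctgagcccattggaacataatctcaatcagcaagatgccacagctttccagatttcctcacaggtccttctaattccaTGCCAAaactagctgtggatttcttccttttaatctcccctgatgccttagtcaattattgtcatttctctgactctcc
Chodl: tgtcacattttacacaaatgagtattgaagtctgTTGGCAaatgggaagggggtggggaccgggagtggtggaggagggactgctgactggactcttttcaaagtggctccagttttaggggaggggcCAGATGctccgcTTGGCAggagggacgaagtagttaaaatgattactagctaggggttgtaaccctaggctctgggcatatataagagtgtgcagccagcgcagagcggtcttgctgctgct
Mag: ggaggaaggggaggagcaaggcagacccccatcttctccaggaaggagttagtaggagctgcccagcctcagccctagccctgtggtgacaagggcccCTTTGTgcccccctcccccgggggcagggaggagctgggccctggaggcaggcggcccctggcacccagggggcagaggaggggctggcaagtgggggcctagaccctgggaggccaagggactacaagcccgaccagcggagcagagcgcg
The Gabra6 stretch holds an NFI motif, that of Chodl an E-box between 2 NFI motifs, and that of Mag a SOX motif. Over windows that run on to 50 bases after the start, the SOX motif stood in 8 of the 31 oligodendrocyte promoters with an entry (25.8%), in 0 of 16 granule neuron promoters and in 18.3% of all 27457 promoters. The E-box stood in 3 of 16 granule neuron promoters (18.8%) against 16.3% of all, and the NFI motif in 3 of 16 (18.8%) against 13.6%. The SOX motif also stood in 3 of 11 Hox promoters (27.3%) and 3 of 26 promoters of myelin lipid genes (11.5%). Motor neuron promoters held the E-box in 3 of 15 (20%) and the NFI motif in 4 of 15 (26.7%). In microglia promoters these stood in 5 of 19 (26.3%) and 4 of 19 (21.1%). In Purkinje cell promoters it was 1 of 17 (5.88%) and 2 of 17 (11.8%). The motifs were thus not particular to oligodendrocyte or granule neuron genes. A match describes the letters only.

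**Figure D1:**
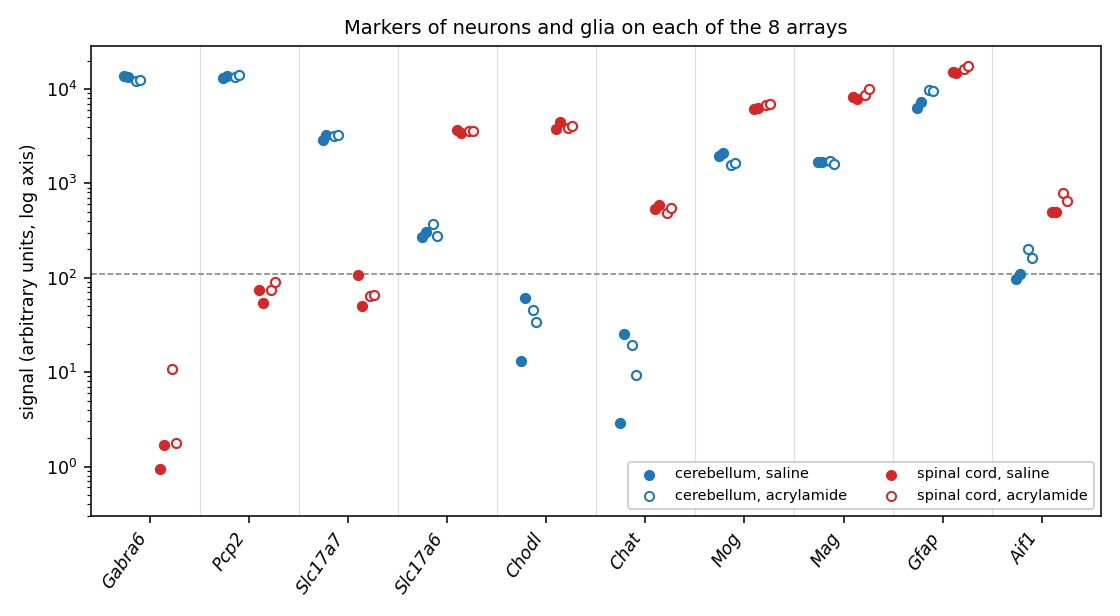
Signal of 10 marker genes on each of the 8 arrays, on a log axis in arbitrary units; filled points are saline, open points acrylamide, blue cerebellum and red spinal cord, and the dashed line is the filter's signal of 110. No gene shown has overlapping tissues, and Gabra6 runs from 12267 or more in the cerebellum to 10.9 or less in the cord.

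Of 20569 probe sets tested, 2496 (12.1%) were called higher in the spinal cord and 2117 (10.3%) higher in the cerebellum, in all 22.4%. For 2471 and 2101 of them the 4 arrays of the brighter tissue all lay above the 4 of the other, and 558 and 491 differed at least 4-fold. Called or not, 6586 probe sets were so separated towards the cord and 7336 towards the cerebellum. A lack of overlap was thus common and does not by itself set a gene apart. With 1 probe set per gene, the form used for the gene lists below, 1556 of 10948 genes (14.2%) were higher in the cord and 746 (6.81%) in the cerebellum, and the median difference over all genes was 0.07. The count of every list is to be read beside these shares. The arrays correlated at 0.978 to 0.987 within a tissue and at 0.790 to 0.811 between tissues. Their median signals lay between 190.4 and 199. On 1 array, spinal cord saline replicate 1, genes of skeletal muscle stood far above every other array, and their values are given with that list. Its omission left 2507 probe sets higher in the cord and 2174 higher in the cerebellum.

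The largest differences towards the cord were those of Pmp2, which binds fatty acids in peripheral myelin, Scn7a, a sodium-sensing channel, Chodl, Prx, Myoc, Mlip, Hoxa9, Sfrp5, Prph, Sema3b, Hoxd8 and Hoxa10. Their log2 differences ran from 6.99 for Pmp2 to 4.93 for Hoxa10. Sfrp5, a secreted Wnt antagonist, had signals of 2737, 3752, 2496 and 1698 in the cord and 29.8, 75.4, 69.9 and 36.3 in the cerebellum. Sema3b, a secreted guidance protein, had signals of 2169, 3066, 2002 and 1445 and 50.6, 39.9, 62.5 and 56.2. In the cord both were highest on saline replicate 2 and lowest on acrylamide replicate 2, as were Prx, Scn7a, Mlip and Pmp2. Sfrp5 was at least 23.4-fold and Sema3b at least 19.04-fold higher in cord RNA (limma adjusted p = 5.99e-09 and 1.22e-09).

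The largest differences towards the cerebellum were those of Gabra6, Neurod1, Pcp2, Ttr, Fat2, En2, Cnpy1, Gabrd, Car8, Ppp1r17, Slc17a7 and Plk5, from -9.38 to -5.01. Cnpy1, a regulator of fibroblast growth factor signalling at the midbrain-hindbrain boundary, had signals of 1376, 1428, 1377 and 1507 in the cerebellum and 2.11, 3.605, 3.39 and 3.92 in the cord. Plk5, a member of the polo-like kinase family, had signals of 2327, 2392, 1888 and 2319 and 80.3, 60.7, 58.6 and 26.6. Both were separated without overlap. Cnpy1 was at least 12.9-fold and Plk5 at least 20.2-fold higher in the cerebellum (limma adjusted p = 6.91e-12 and 4.80e-10).

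Genes of granule neurons were higher in the cerebellum in every member that passed the filter: 23 of 23 were called, 14 of them measured in both tissues and 9 in the cerebellum only, with a median log2 difference of -2.51 against 0.07 over all genes. They ran from -9.38 for Gabra6 to -1.35 for Calb2, which encodes calretinin, a calcium-binding protein that other neurons also use. Neurod1, a transcription factor of granule neuron differentiation, had signals of 13515, 16144, 13596 and 13496 in the cerebellum and 27.1, 18.8, 37.9 and 19.9 in the cord, at least 129-fold apart. Fat2, a large cadherin of parallel fibres, had signals of 5078, 4844, 4935 and 5433 and 52.6, 31.4, 38.9 and 40.2. Both genes were under the filter on all 4 cord arrays. Fat2 was at least 46.1-fold higher in the cerebellum (-6.50 ± 0.11, limma adjusted p = 4.51e-12). Cadps2, a protein of dense-core vesicle release, differed by -4.03 ± 0.07, Pax6 by -3.32 ± 0.07 and Chn2, a regulator of Rac, by -1.98 ± 0.04. Cadps2, Pax6 and Chn2 all stayed above the filter in the cord, at 364, 313, 316 and 379 for Cadps2, so that the difference is a measured ratio. Grm4, the presynaptic glutamate receptor of parallel fibres, differed by -3.05 ± 0.07. The list's transcription factors Neurod2, Zic1, Zic2, Uncx, Barhl1 and Barhl2 were all among the called genes, from -4.66 for Neurod2 to -1.59 for Zic2.

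Purkinje cell genes were also higher in the cerebellum, with exceptions. Of 21 members tested, 18 were called higher in the cerebellum and 2 higher in the cord, with a median of -2.43. Car8, which binds the inositol trisphosphate receptor, had signals of 9449.8, 10070.00, 8633 and 9718 in the cerebellum and 178, 135, 143 and 205 in the cord. Itpr1, that receptor itself, had signals of 13573, 14782, 13029.9 and 14249.9 and 814, 735, 1001 and 900.4. Both genes were separated, and both were measured in the cord. Car8 was 57.98-fold and Itpr1 16.2-fold higher in the cerebellum (limma adjusted p = 1.15e-11 and 1.15e-11). Ppp1r17, a phosphatase inhibitor, differed by -5.47 ± 0.09, Calb1, calbindin, by -4.10 ± 0.07, and Slc1a6, the glutamate transporter of Purkinje cells, by -4.25 ± 0.10. Cacna1a, the P/Q-type calcium channel, averaged 112 ± 9.34 in the cord and 878 ± 47.6 in the cerebellum (-2.80 ± 0.09).

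The members that went the other way were Scn4b, a sodium channel subunit, and Nrgn, a calmodulin-binding protein of forebrain neurons. Scn4b had signals of 1476, 1857, 1614 and 1631 in the cerebellum and 5796, 5519.7, 5385 and 5696 in the cord, a difference of 1.76 ± 0.07. Nrgn had signals of 144, 131, 99.3 and 84.02 and 426, 441, 437 and 456, a difference of 1.83 ± 0.13. Foxp2, a transcription factor, was not called, at 121 ± 9.23 in the cord and 159 ± 13.5 in the cerebellum. Pvalb, parvalbumin, is a gene of Purkinje cells and of fast muscle. It had signals of 12393, 12655, 12471 and 12503 in the cerebellum and 3562, 2028, 1983 and 1973 in the cord, where saline replicate 1, the array with the muscle genes, was the high one.

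Other neurons of the cerebellar cortex followed in part. Of 6 members tested for basket, stellate and unipolar brush cells, 4 were called higher in the cerebellum. The same 4 had passed the filter through the cerebellum alone, and the 2 measured in both tissues were not called. Eomes, a transcription factor of unipolar brush cells, had signals of 468, 619.6, 443 and 292 in the cerebellum and 11.04, 0.663, 7.93 and 12.6 in the cord, and differed by -4.28 ± 0.25 (limma adjusted p = 3.26e-08). Tfap2b, a factor of inhibitory interneurons, differed by -3.66 ± 0.16, the receptor tyrosine kinase Kit by -3.41 ± 0.11 and the glutamate receptor Grm2 by -2.20 ± 0.17. Sorcs3 was not called, at -0.78 ± 0.08. Nor was Cdh22, a cadherin, although all 4 cord arrays were above the 4 cerebellum arrays (0.99 ± 0.12). Cdh22 was called, at 1.003 to 1.102, without cerebellum saline replicate 2, either cerebellum acrylamide array or spinal cord acrylamide replicate 1.

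Transcription factors that keep a record of position along the neural tube separated the tissues. Hox genes specify segments of the hindbrain and spinal cord, those with higher numbers more caudally, and the cerebellum arises in front of their domain. All 20 Hox genes that passed the filter were called higher in the cord, with no overlap for any of them and a median difference of 3.36. Each of the 20 passed the filter through its level in the cord alone. A further 2 were under the filter, with no array above 84.1. Hoxa9 had signals of 906, 778, 959.7 and 890.3 in the cord and 0.571, 17.4, 2.33 and 6.86 in the cerebellum. Hoxd8 had signals of 1830.3, 1968, 1915 and 2129.5 and 86.8, 44.3, 58.8 and 21.6. The cerebellum was under the filter's signal on every array for both. Hoxa9 was at least 8.01-fold and Hoxd8 at least 17.8-fold higher in cord RNA (limma adjusted p = 1.36e-09 and 5.53e-09). Hoxa5, a gene of the cervical cord, differed by 4.82 ± 0.25, Hoxa10 by 4.93 ± 0.17 and Hoxd10 by 4.18 ± 0.16, the last 2 being genes of the lumbar cord. The smallest differences were those of Hoxd3 and Hoxa11, at 1.77 ± 0.24 and 1.78 ± 0.21. Hoxd1, from the front end of its cluster, differed by 3.12 ± 0.20.

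**Figure D2:**
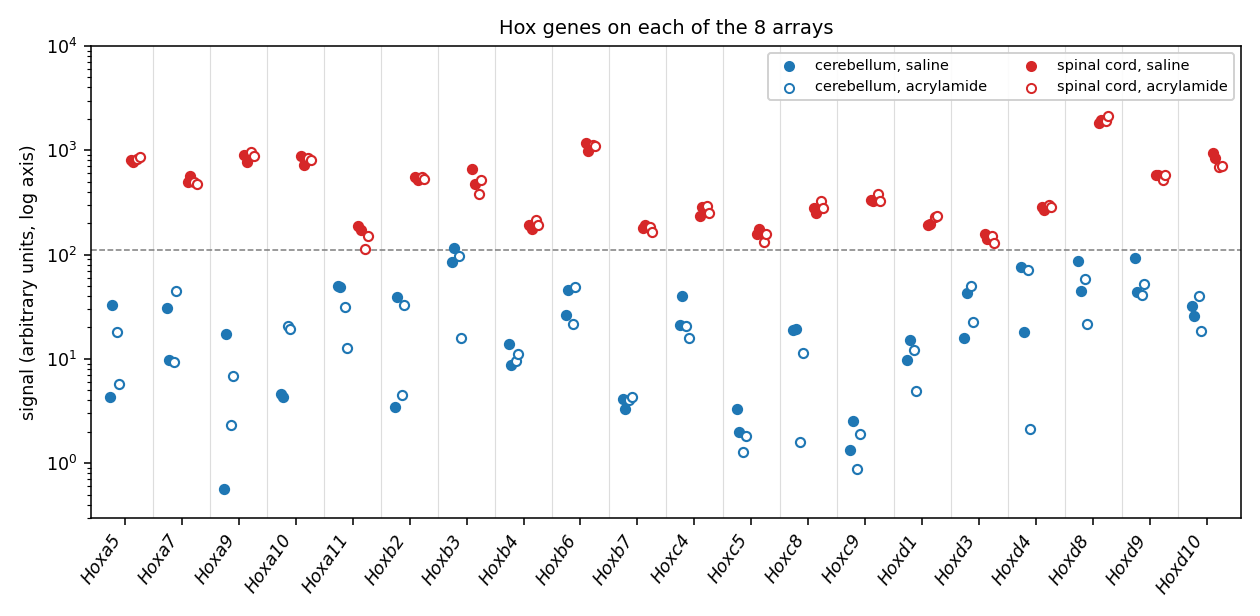
Signal of the 20 Hox genes that passed the filter on each of the 8 arrays, on a log axis in arbitrary units, ordered by cluster and number; colours and symbols are as for the marker genes, and the dashed line is a signal of 110. All cord arrays lie above 110 and above all cerebellum arrays of the same gene, and 1 cerebellum array, for Hoxb3, lies above 110.

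Factors that pattern the cerebellum and the rhombic lip from which its granule neurons arise went the other way, with 10 of 13 members called higher in the cerebellum and 1 in the cord (median -2.48). En2, engrailed 2, which marks the midbrain-hindbrain region, had signals of 3709.6, 3325, 3528 and 3634 in the cerebellum and 33.9, 16.4, 33.7 and 33.9 in the cord, at least 32.2-fold apart (limma adjusted p = 1.49e-11). Zic4 differed by -2.56 ± 0.12 and Zic1 by -2.51 ± 0.11. Meis1 and Meis2 encode related homeodomain partners of Hox proteins, and their differences had opposite signs. Meis1 had signals of 1902, 1868, 2147 and 1921 in the cerebellum and 884, 854, 948 and 888 in the cord (-1.12 ± 0.06, limma adjusted p = 9.53e-09). Meis2 had signals of 22.7, 52.02, 61.4 and 35.4 and 783, 661, 702 and 726 (3.69 ± 0.19, limma adjusted p = 1.28e-08). Irx1 and Irx3, homeodomain factors of neural progenitors, were not called, at -0.72 ± 0.11 and -0.27 ± 0.08.

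Genes of motor neurons and cholinergic transmission were higher in the cord: 12 of 16 members were called there and 0 in the cerebellum, 10 of the 16 having passed through the cord alone, with a median of 3.14. Chat, which makes acetylcholine, had signals of 533, 586, 485 and 552 in the cord and 2.91, 25.4, 19.4 and 9.23 in the cerebellum. Slc5a7, which takes choline up again into the terminal, had signals of 1671, 1587, 1641 and 1735 and 25.9, 66.3, 56.02 and 35.2. Slc18a3, which loads acetylcholine into vesicles, had signals of 786, 752, 692 and 873 and 7.25, 30.4, 7.72 and 35.6. All 3 genes were under the filter's signal on every cerebellum array and well above it on every cord array. They were at least 4.89-fold, at least 15.1-fold and at least 7.03-fold higher in cord RNA (limma adjusted p = 1.83e-08, 1.17e-09 and 2.83e-08).

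Motor neurons also carry peptides. Calca, calcitonin gene-related peptide, had signals of 1755, 2166, 1500.2 and 1946 in the cord and 66.5, 56.7, 36.1 and 27.9 in the cerebellum (4.92 ± 0.14). Uts2, urotensin 2, had signals of 602, 786, 372 and 397 and 10.8, 5.76, 7.17 and 7.75 (4.48 ± 0.19), and its acrylamide arrays were below its saline arrays in the cord. Spp1, osteopontin, which is also made by macrophages and fibroblasts, differed by 3.09 ± 0.10. Prph, peripherin, an intermediate filament of neurons that project to the periphery, averaged 2767 ± 117 in the cord and 77.7 ± 45.1 in the cerebellum (5.01 ± 0.24). Of the uncalled members, Esrrg, an orphan nuclear receptor of gamma motor neurons, was at 1227 ± 48.7 in the cord and 1563 ± 195 in the cerebellum, and Ret, the receptor for GDNF ligands, at 1172 ± 208 in the cord and 1117 ± 80.3 in the cerebellum. A dimmer probe set of Ret was called higher in the cord, with a difference of 1.23. A further 12 members were under the filter.

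Of 12 transcription factors of dorsal horn and other spinal interneurons, 4 (33.3%) were called higher in the cord and 1 (8.33%) in the cerebellum, and 7 were not called. Over all genes the shares were 14.2% and 6.81%. Zfhx3 and Zfhx4, zinc finger homeodomain factors, had differences of 2.33 ± 0.10 and 2.19 ± 0.16. Pax8, a paired box factor of inhibitory interneurons, had signals of 285, 217, 279 and 265 in the cord and 22.2, 17.9, 75.5 and 88.7 in the cerebellum (2.22 ± 0.25). Bhlhe22, a basic helix-loop-helix factor used in both regions, was the gene higher in the cerebellum, at 488 ± 42.9 in the cord and 2235 ± 24.2 in the cerebellum (-2.16 ± 0.06). A further 8 factors lay under the filter.

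Neuropeptides and their receptors were mostly higher in the cord, with 27 of 37 members called there against 2 in the cerebellum, and a median of 1.60. Of the 37, 18 passed through the cord alone, and a further 14 were under the filter. Cck, cholecystokinin, had signals of 1650.4, 1541, 1373 and 1728 in the cord and 114, 77.5, 62.03 and 121 in the cerebellum. Pdyn, the precursor of dynorphins, had signals of 666, 443, 491 and 482 and 54.3, 20.3, 47.3 and 25.8, and its receptor Oprk1 had 143, 112, 116 and 119 and 3.79, 2.18, 2.61 and 2.25. Both were under the filter on all cerebellum arrays, and Oprk1 was near it in the cord. Cck was at least 13.8-fold, Pdyn at least 4.67-fold and Oprk1 at least 1.11-fold higher in cord RNA (limma adjusted p = 2.99e-09, 9.60e-08 and 3.80e-07). Nmu, neuromedin U, had signals of 109, 122, 118 and 129 in the cord and 7.497, 8.003, 5.11 and 6.04 in the cerebellum, and Trhr, the receptor for thyrotropin-releasing hormone, 578, 614, 627 and 679 and 62.97, 45.1, 72.6 and 69.5.

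Among the peptides of pain-transmitting circuits, Tac1 (substance P), Nts (neurotensin) and Sst (somatostatin) were called higher in the cord, at 3.44 ± 0.25, 3.23 ± 0.17 and 1.82 ± 0.09. Penk, the precursor of enkephalins, was not called although its tissues did not overlap (2436, 2321, 2299 and 2381 in the cord, 1361, 1484, 1465 and 1370.4 in the cerebellum). The granins, proteins of dense-core vesicles, did not go one way. Scg2 differed by 1.86 ± 0.08 and the related Vgf by 2.60 ± 0.11, while Chgb was higher in the cerebellum (-1.04 ± 0.05; adjusted p 0.251 in the limma fit over all 12 arrays) and Scg5 and Scg3 were not called (-0.37 ± 0.04 and -0.18 ± 0.05). Sstr3, a somatostatin receptor of neuronal cilia, was at least 8.32-fold higher in the cerebellum, at 1147, 1135, 1294 and 1195 against 169, 107, 167 and 136 in the cord (limma adjusted p = 2.06e-09). Npy was just past the threshold (1.01 ± 0.27), with 281, 861, 888 and 587 in the cerebellum and 1349, 1094, 1268 and 1193 in the cord, and it fell below 2-fold without cerebellum saline replicate 1 (0.65), cerebellum acrylamide replicate 2 (0.95) or spinal cord saline replicate 1 (0.90).

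GABA and glycine genes split by subunit. Of 21 members tested, 6 (28.6%) were higher in the cerebellum and 7 (33.3%) in the cord, against 6.81% and 14.2% of all genes. The median was 0.14. The subunits of the receptors that give granule neurons their tonic inhibition were higher in the cerebellum. Gabrd had signals of 4001, 4244, 4205 and 4351 there and 59.1, 57.9, 69.3 and 61.8 in the cord, and Gabrb2 7255, 7746, 7146 and 7787 and 914, 919.9, 951 and 972. Gabrd was at least 38.2-fold and Gabrb2 7.96-fold higher in the cerebellum (limma adjusted p = 1.50e-12 and 4.51e-12). Gabra4, near the filter's signal, differed by -1.29 ± 0.20.

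Other alpha subunits were higher in the cord. Gabra5 had signals of 1042, 768, 919 and 761 in the cord and 36.5, 139, 95.1 and 41.9 in the cerebellum (3.37 ± 0.30, limma adjusted p = 1.24e-06). Gabra2 had signals of 547, 636, 621 and 697 and 199.7, 103, 95.7 and 106 (2.22 ± 0.18, limma adjusted p = 6.75e-07). Gabra3 differed by 1.55 ± 0.30. Among the glycine receptor subunits, Glra1, the main adult alpha subunit, had signals of 152, 246, 301 and 342 in the cord and 25.4, 24.9, 5.85 and 26.9 in the cerebellum (2.90 ± 0.28). Glra2 differed by 1.43 ± 0.12, and Glrb, the shared beta subunit, was not called at 0.66 ± 0.05 although its tissues did not overlap. Slc6a9, the glial glycine transporter, differed by 1.47 ± 0.09.

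The enzymes that make GABA were higher in the cerebellum. Gad1 had signals of 9832, 10311, 9929 and 10307 there and 3092, 3091, 2844 and 2772 in the cord (-1.77 ± 0.04, limma adjusted p = 5.94e-11, and 0.0616 in the limma fit over all 12 arrays). Gad2 differed by -1.39 ± 0.11. Slc32a1, the vesicular transporter that loads both GABA and glycine, overlapped between the tissues, at 1333, 1389.9, 1361 and 1400.03 in the cerebellum and 1353, 1270.3, 1223 and 1358 in the cord. Gabbr1, Gabbr2 and the anchor protein Gphn were not called (-0.16 ± 0.04, -0.76 ± 0.06 and -0.25 ± 0.05).

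**Figure D3:**
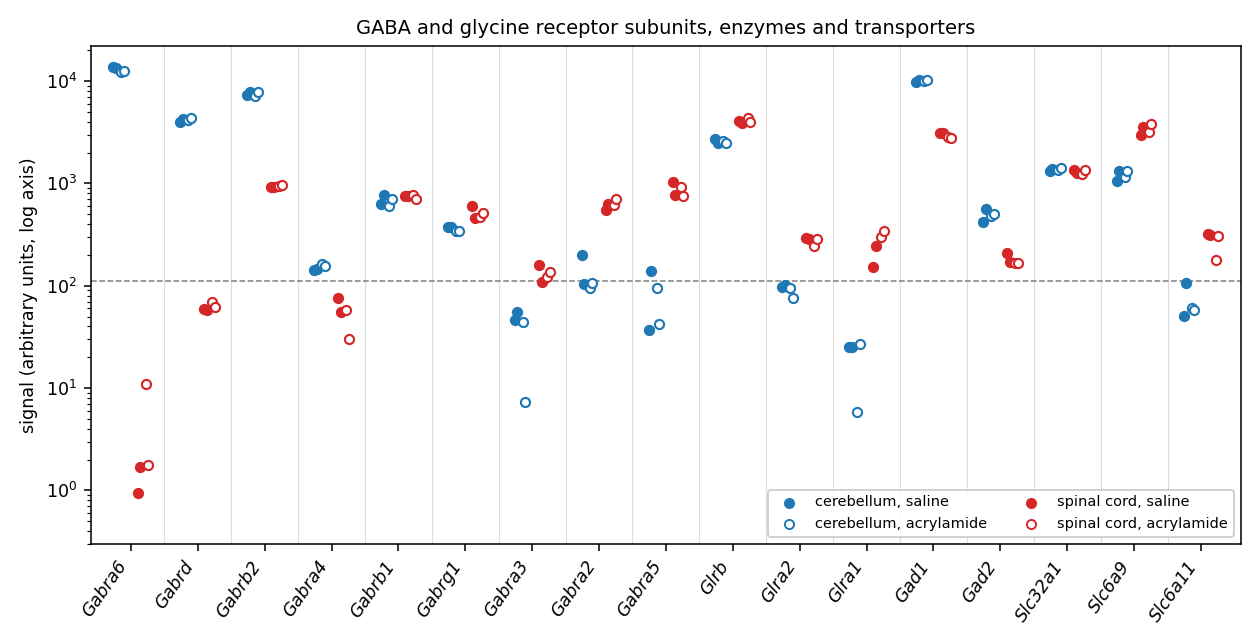
Signal of 17 GABA and glycine genes on each of the 8 arrays, on a log axis in arbitrary units; colours and symbols are as for the marker genes, and the dashed line is a signal of 110. Gabra6, Gabrd, Gabrb2, Gabra4, Gad1 and Gad2 are higher in the cerebellum, Gabra2, Gabra3, Gabra5, Glra1, Glra2, Slc6a9 and Slc6a11 in the cord, and Slc32a1 and Gabrb1 overlap.

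Glutamate genes also split, with 10 of 26 (38.5%) higher in the cerebellum and 7 (26.9%) in the cord, against 6.81% and 14.2% of all genes. The 2 vesicular transporters were exchanged. Slc17a7 (VGLUT1) had signals of 2907, 3226, 3156 and 3256 in the cerebellum and 107, 50.5, 64.5 and 65.4 in the cord. Slc17a6 (VGLUT2) had signals of 273, 306, 374 and 275 in the cerebellum and 3708, 3448, 3623 and 3597 in the cord. Slc17a7 was at least 28.5-fold higher in the cerebellum and Slc17a6 11.8-fold higher in cord RNA (limma adjusted p = 1.99e-10 and 6.37e-11).

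Of the AMPA receptor subunits, Gria1, Gria2 and Gria4 were higher in the cerebellum, at -2.11 ± 0.09, -1.27 ± 0.07 and -2.20 ± 0.08, while Gria3 overlapped (0.19 ± 0.08). Of the NMDA receptor subunits, Grin2c was higher in the cerebellum (-1.91 ± 0.07) and Grin2d, Grin3a and Grin3b in the cord (1.21 ± 0.16, 1.13 ± 0.14 and 1.49 ± 0.14). Grin1, the obligatory subunit, was not called by its brightest probe set (-0.75 ± 0.06), and a dimmer one was called higher in the cerebellum at -2.05. Grm5, a metabotropic receptor coupled to phospholipase C, had signals of 391, 506, 345 and 409 in the cord and 46.3, 91.3, 64.7 and 45.5 in the cerebellum (2.49 ± 0.18).

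Of 11 receptors for monoamines, 6 (54.5%) were higher in the cord and 1 (9.09%), Drd1, in the cerebellum (-1.21 ± 0.17). The shares over all genes were 14.2% and 6.81%. A further 17 were under the filter. Htr2c, a serotonin receptor, had signals of 3762, 3586, 3755 and 3742 in the cord and 663, 874, 575 and 692 in the cerebellum (5.35-fold, limma adjusted p = 1.63e-09). Htr7 and Htr2a differed by 2.33 ± 0.21 and 1.76 ± 0.25, the dopamine receptor Drd2 by 1.99 ± 0.32 and the adrenergic receptor Adra2a by 1.58 ± 0.12. Hrh1, a histamine receptor, passed narrowly (1.03 ± 0.14) and was under 2-fold without cerebellum acrylamide replicate 1 (0.91), spinal cord acrylamide replicate 1 (0.99) or spinal cord acrylamide replicate 2 (0.99). Adra2c was not called (-0.73 ± 0.10).

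Of 54 voltage-gated and related channel genes, 19 (35.2%) were higher in the cerebellum and 13 (24.1%) in the cord, against 6.81% and 14.2% of all genes. Scn2a, the alpha subunit of unmyelinated axons and initial segments, had signals of 3365, 3623, 3477 and 3364 in the cerebellum and 465, 359, 435 and 414 in the cord (8.299-fold, limma adjusted p = 6.37e-11). Its partner Scn2b differed by -2.01 ± 0.05. Kcnd2 and Kcnip4, an A-type potassium channel and its accessory protein, differed by -2.07 ± 0.06 and -1.90 ± 0.06, and Kcnc1, a channel of fast-spiking neurons, by -1.80 ± 0.06. Cacnb4, a calcium channel beta subunit, differed by -2.47 ± 0.10. Kcnj16, an inward rectifier of astrocytes, had signals of 1674, 1741, 1861 and 1837 in the cord and 421, 409, 448 and 416 in the cerebellum (2.03 ± 0.06). Kcna6 and Kcnq5, potassium channels, and Scn3b, a sodium channel subunit, were higher in the cord too (1.63 ± 0.10, 2.17 ± 0.15 and 1.71 ± 0.12). A second probe set of Kcna6 was not called and overlapped between the tissues (0.75). For Kcnj6, another inward rectifier, the brightest probe set was called towards the cerebellum (-1.997) and a second was not (-0.52), and for Kcnab2, a potassium channel beta subunit, 1 was called towards the cord (1.39 ± 0.07) and 3 were not (0.77, 0.77 and -0.56). Kcna1 and Kcna2, the channels beside the nodes of myelinated axons, were not called, with differences of 0.43 ± 0.05 and 0.46 ± 0.06 and no overlap.

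Synapse organisers included an exchange within 1 family. Cbln1, which links parallel fibres to Purkinje cells, had signals of 10220.4, 11261, 10207 and 11505 in the cerebellum and 610.1, 637, 644 and 1025 in the cord. Cbln2, its paralog, had signals of 27.9, 11.8, 8.64 and 8.56 in the cerebellum and 538, 417, 574 and 537 in the cord. Cbln1 was 15.2-fold higher in the cerebellum and Cbln2 at least 4.66-fold higher in cord RNA (limma adjusted p = 3.38e-10 and 7.85e-09). Of 27 members, 9 (33.3%) were called towards the cerebellum and 5 (18.5%) towards the cord, against 6.81% and 14.2% of all genes. The postsynaptic scaffolds Shank3, Shank2 and Homer3 differed by -2.70 ± 0.06, -1.74 ± 0.05 and -2.38 ± 0.07, and the pentraxin Nptx1 and its receptor Nptxr by -1.94 ± 0.05 and -2.07 ± 0.08. Thbs4, a thrombospondin, was higher in the cord at 453, 630.4, 586 and 483 against 66.6, 31.3, 77.3 and 55.9 (2.94 ± 0.19). Lgi3 was called towards the cord (1.28 ± 0.05) by its brightest probe set, and a dimmer one stood at -0.66. C1ql3 and Ntng1 were called narrowly (1.03 ± 0.12 and -1.01 ± 0.07). C1ql3 was under 2-fold without either cerebellum saline array (0.979 and 0.996) or spinal cord saline replicate 1 (0.92). For Slitrk1 the brightest probe set was not called (-0.38) and 2 others were called towards the cerebellum (-1.52 and -1.30), and for Nrxn2 1 was not (-0.98) and 1 was (-1.18). Ntng1 was under 2-fold, at -0.992 to -0.998, without cerebellum saline replicate 1 or 2, cerebellum acrylamide replicate 1 or spinal cord saline replicate 1 or 2.

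Of 41 genes of the axonal cytoskeleton and transport, 9 (22%) were higher in the cord and 1 (2.44%) in the cerebellum, against 14.2% and 6.81% of all genes. The neurofilaments, which set the calibre of large axons, were among the 9. Nefm had signals of 22940.1, 21993, 21201 and 22740.4 in the cord and 2908, 4055, 3691 and 3307 in the cerebellum. Nefl had signals of 14630.3, 13842, 13872 and 13988 and 2455, 3041, 2813 and 2463, and Nefh 15984, 15209, 14685 and 15471 and 4037, 4870.00, 4436 and 4449. The tissues did not overlap, and the 3 genes were 6.41-fold, 5.25-fold and 3.45-fold higher in cord RNA (limma adjusted p = 3.22e-10, 1.20e-10 and 2.86e-10). Ina, the fourth filament of central axons, overlapped at 0.13 ± 0.04. Sncg, gamma-synuclein, which is also found in sensory neurons, had signals of 5177, 5617, 7519 and 7647 in the cord and 226, 718, 987 and 795 in the cerebellum (3.38 ± 0.27). Uchl1, a ubiquitin hydrolase of neurons, differed by 2.26 ± 0.08 and Tubb3, neuronal beta-tubulin, by 2.09 ± 0.06. The gene called towards the cerebellum was Sptbn4, the spectrin of nodes and initial segments (-1.10 ± 0.07; adjusted p 0.0761 in the limma fit over all 12 arrays). Dpysl2, Tubb2a, Stmn1 and Map1b were not called, with differences of 0.33 ± 0.05, 0.28 ± 0.06, 0.18 ± 0.04 and 0.24 ± 0.04.

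Oligodendrocyte and central myelin genes were higher in the cord in 35 of 40 cases and in the cerebellum in 0, with a median of 1.85. Of the 40, 39 were measured in both tissues. The called differences ran from 1.03 to 2.70. Mag, an adhesion protein of the inner myelin wrap, had signals of 8185, 7919, 8707 and 9956 in the cord and 1672, 1672, 1717 and 1622 in the cerebellum. Mal, a proteolipid of compact myelin, had signals of 8441, 9673, 8458 and 7464 and 1174, 1349.7, 1307 and 1340.2. Aspa, which frees acetate from N-acetylaspartate, had signals of 1703, 1837, 1857 and 1908 and 311, 272, 298 and 316. Every cord array was above every cerebellum array in these 3 genes, which were 5.18-fold, 6.56-fold and 6.11-fold higher (limma adjusted p = 5.95e-11, 1.16e-10 and 7.14e-11). Plekhb1, Pllp, Bcas1, Lpar1 and Apod, the other members with the smallest p, differed by 2.15 ± 0.05, 2.13 ± 0.06, 1.91 ± 0.06, 1.75 ± 0.05 and 1.45 ± 0.04.

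Mbp, myelin basic protein, was not called by its brightest probe set, at 11482, 15738, 11839 and 13728 in the cerebellum and 26093, 26669.7, 22862 and 28485 in the cord (0.99 ± 0.10). Another Mbp probe set was called, with a difference of 2.37. The first was called without cerebellum saline replicate 2 (1.08), cerebellum acrylamide replicate 2 (1.03) or spinal cord acrylamide replicate 1 (1.05). Car2, carbonic anhydrase 2, and Tppp, a tubulin-binding protein, were not called (-0.32 ± 0.07 and 0.14 ± 0.07), nor was Enpp2 (0.54 ± 0.08). The transcription factors Sox10, Myrf, Olig1 and Nkx6-2 differed by 2.39 ± 0.09, 2.30 ± 0.08, 1.86 ± 0.07 and 1.93 ± 0.13.

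The enzymes that supply myelin with cholesterol and long-chain sphingolipids followed the myelin genes, with 27 of 33 called higher in the cord, 0 in the cerebellum, and a median of 1.61. Ugt8, which makes galactosylceramide, had signals of 7611, 7465, 6797 and 6949 in the cord and 1371, 1413, 1026 and 1197 in the cerebellum. Fa2h, which hydroxylates its fatty acids, had signals of 4284, 4667, 3519.7 and 3604 and 795, 956, 708 and 718. Both were separated, 5.796-fold and 5.06-fold (limma adjusted p = 3.91e-11 and 9.67e-11). Of the cholesterol pathway, Msmo1 differed by 2.12 ± 0.05, Cyp51 by 1.93 ± 0.04, Sqle by 2.25 ± 0.06 and Dhcr7 by 2.31 ± 0.07. Acly, which makes cytosolic acetyl-CoA, differed by 1.81 ± 0.05 and the elongase Elovl1 by 2.11 ± 0.06. The pathway's regulators Srebf2 and Srebf1 were not called (0.54 ± 0.05 and 0.66 ± 0.07). For Scd2 (0.45 ± 0.05) and Idi1 (0.93 ± 0.08), the brightest probe set was not called and a dimmer one was, at 1.19 and 1.36. The brightest probe set of Idi1 was called, at 1.005, without cerebellum acrylamide replicate 1.

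Of 14 oligodendrocyte precursor genes tested, 6 (42.9%) were called higher in the cord and 0 in the cerebellum, against 14.2% and 6.81% of all genes. The median was 0.89. Pdgfra, the growth factor receptor of these cells, had signals of 1977, 1984, 1863 and 1921 in the cord and 873, 739, 847 and 849.6 in the cerebellum (1.21 ± 0.06), and Cspg4, the proteoglycan NG2, differed by 1.42 ± 0.13. The extracellular matrix and adhesion genes Ptprz1, Tnr and Vcan were at -0.08 ± 0.08, -0.19 ± 0.09 and -0.39 ± 0.08, and were not called. For Bcan the brightest probe set was called (1.18 ± 0.07) and a dimmer one was at 0.10. Probe sets also disagreed for Fgfr3, a receptor of astrocytes (1.43, called, and 0.96, not), Sox4 (1.33, called, and 0.96 and 0.81, not), Slc4a1, the anion exchanger of red blood cells (2.40, called, and 0.61, not), and Hrh3, a histamine receptor (0.96, not called, and 1.07, called), the brightest given first.

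**Figure D4:**
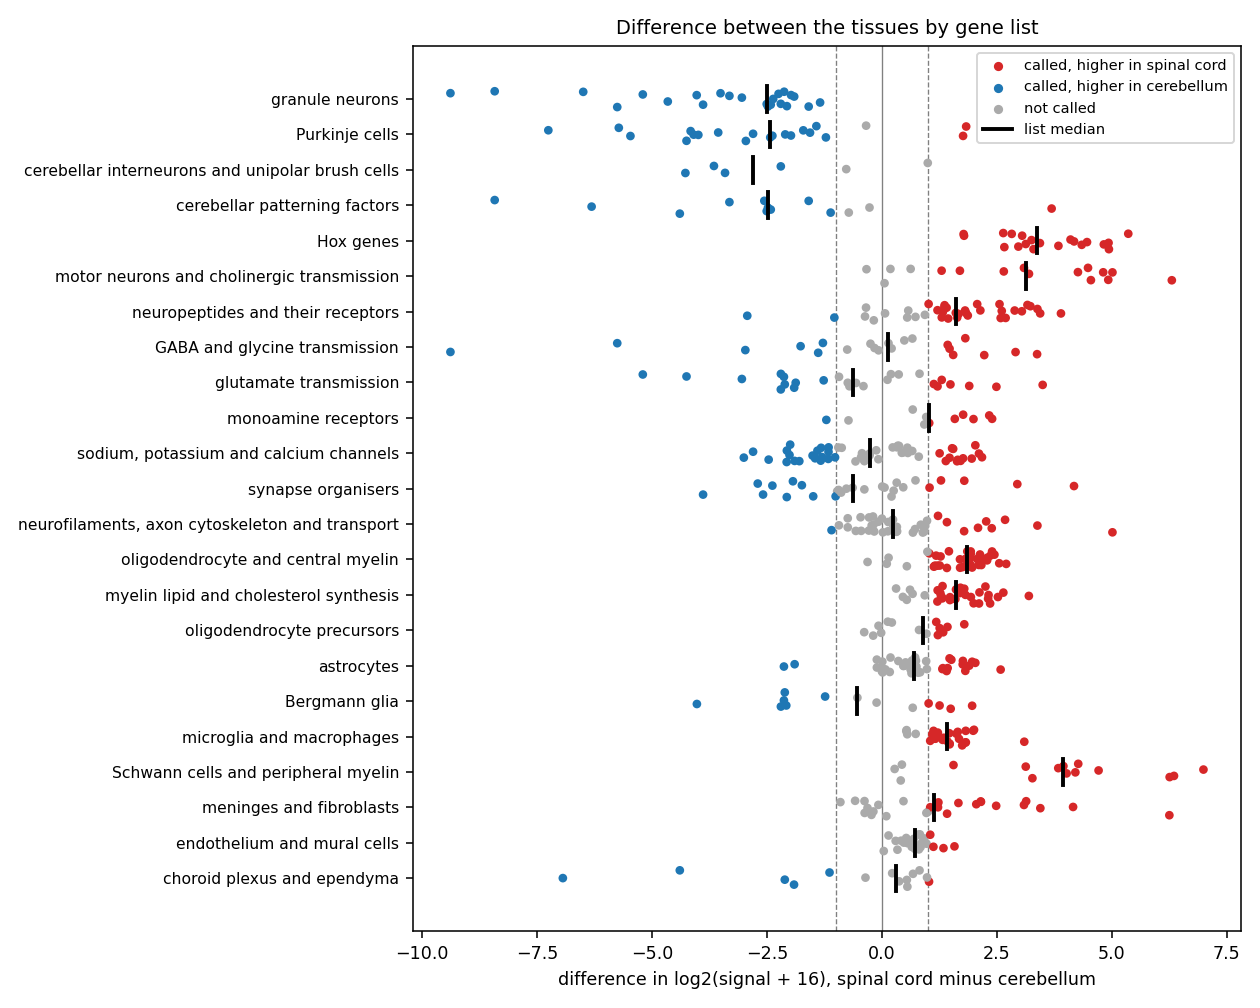
Difference between spinal cord and cerebellum in log2(signal + 16) for each gene of 23 lists; each point is 1 gene (red, called higher in the cord; blue, called higher in the cerebellum; grey, not called), black bars are list medians and dashed lines mark a 2-fold difference. Neuronal lists spread over both sides up to -9.38 for Gabra6, while the oligodendrocyte, myelin lipid and microglia lists lie to the right with no call to the left.

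Astrocyte genes were mixed, with 13 of 40 (32.5%) higher in the cord, 2 (5%) in the cerebellum and 25 not called (median 0.68). The shares over all genes were 14.2% and 6.81%. The probe sets of the 2 glutamate transporters of astrocytes differed in opposite directions. That of Slc1a2 was dim, with cerebellum signals on both sides of the filter's, so it does not show that 1 transporter replaced the other. Slc1a3 (GLAST) had signals of 14205, 12561, 12373 and 12473 in the cerebellum and 2874, 2626, 3149 and 3075 in the cord (-2.13 ± 0.06, limma adjusted p = 2.27e-10). Slc1a2 (GLT-1) had signals of 44.2, 101, 54.9 and 124 in the cerebellum and 267, 349.7, 326 and 366 in the cord (1.90 ± 0.24, limma adjusted p = 2.50e-05). Timp4, an inhibitor of metalloproteinases, was the other gene towards the cerebellum (-1.90 ± 0.06). Hepacam, an adhesion protein of astrocyte endfeet, and Nes, the filament nestin, differed by 1.51 ± 0.06 and 2.58 ± 0.16. Gfap, the filament of fibrous astrocytes, was not called, at 15071, 14796, 16358 and 17468 in the cord and 6307, 7239, 9836 and 9468 in the cerebellum (0.97 ± 0.07), without overlap. Sparcl1, Cst3, S100b and Aldoc differed by -0.00 ± 0.05, -0.00 ± 0.05, 0.47 ± 0.05 and 0.01 ± 0.05.

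Genes of Bergmann glia, the radial astrocytes of the cerebellar cortex, did not go one way. Of 13, 6 (46.2%) were higher in the cerebellum and 4 (30.8%) in the cord, against 6.81% and 14.2% of all genes. Gdf10, a growth factor, had signals of 1132, 1137, 900.2 and 929.8 in the cerebellum and 53.4, 51.7, 42.7 and 43.03 in the cord (at least 9.26-fold, limma adjusted p = 2.10e-11). Tnc, tenascin C, differed by -2.08 ± 0.15 and Wif1, a Wnt inhibitor, by -1.24 ± 0.09. The fatty acid-binding protein gene Fabp7, often used to mark radial glia, was higher in the cord, at 5309.98, 5719, 6889 and 7013 against 1222, 1539.8, 2053 and 1611 in the cerebellum (1.96 ± 0.08). Hopx and A2m were too (1.49 ± 0.10 and 1.25 ± 0.08), and Npy was the last.

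Microglia and macrophage genes were higher in the cord: 23 of 27 were called there, 0 in the cerebellum, and all 27 had no overlap (median 1.42). Over all 20569 probe sets, 6586 had no overlap towards the cord. Aif1 (Iba1) had signals of 497, 494, 787 and 657 in the cord and 96.1, 109, 203 and 163 in the cerebellum. Ctss, cathepsin S, had signals of 6182, 6432, 7190.1 and 8021 and 1549.9, 2067, 2142 and 2102, and P2ry12, a receptor of resting microglia, 769.7, 636, 1016 and 886 and 246, 214, 297 and 247. Aif1 was at least 4.22-fold, Ctss 3.55-fold and P2ry12 3.27-fold higher in cord RNA (limma adjusted p = 1.65e-08, 2.75e-09 and 5.44e-08). Lgals3, galectin 3, had the largest difference (3.09 ± 0.19). Cx3cr1 and Tmem119, also microglial, were not called (0.73 ± 0.11 and 0.53 ± 0.11). The signals of the list summed to 24276 and 26647 on the saline and 31399 and 29076 on the acrylamide arrays of the cord, and to 7708 and 7683 against 10283.5 and 9973 in the cerebellum. The acrylamide sums were the higher in both tissues.

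Schwann cell and peripheral myelin genes were higher in the cord in 12 of 15 cases and in the cerebellum in 0, 10 of the 15 having passed through the cord alone and 5 being measured in both tissues (median 3.94). Prx, the periaxin of peripheral myelin, had signals of 5925, 7312, 5059 and 3626 in the cord and 53.5, 46.6, 70.5 and 47.1 in the cerebellum. Pmp2 had signals of 4646, 5213, 2674 and 2645 and 11.9, 7.94, 17.02 and 14.4, and Pmp22, a peripheral myelin protein that other cells also make, 22637, 21679.6, 19937 and 20801 and 1628, 1447, 1499 and 1347. Prx was at least 48.3-fold, Pmp2 at least 32.9-fold and Pmp22 14.4-fold higher in cord RNA (limma adjusted p = 1.20e-10, 1.43e-10 and 1.87e-12). Egr2, the transcription factor of myelinating Schwann cells, differed by 4.27 ± 0.22, and Drp2, Art3 and Cdh1 by 3.12 ± 0.11, 3.94 ± 0.09 and 3.27 ± 0.19. The list summed to 52249 and 57874 on the saline and 45665 and 41087 on the acrylamide arrays of the cord, and to 4595 to 4941 in the cerebellum. The part of nerve roots in the differences of genes that both kinds of myelin share was not tested.

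Sensory neuron genes did not go one way. Of the 7 that passed the filter, 5 of them through the cord alone, 6 were higher in the cord and 1, Avil (advillin), in the cerebellum (-1.61 ± 0.11). Calca, Prph, Tac1 and Sncg of this list are also genes of cord neurons, and their values are given above. Runx1 and Fxyd2 differed by 1.42 ± 0.17 and 3.05 ± 0.27. The defining sodium channels and receptors of nociceptors, Scn10a, Scn11a, Trpv1 and P2rx3, had means under the filter in both tissues. P2rx3 was just under it in the cord, at a mean of 109.1 against 58.6 in the cerebellum, and was not tested.

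Genes of meninges and fibroblasts were higher in the cord in 14 of 26 cases (53.8%) and in the cerebellum in 0 (median 1.13). The shares over all genes were 14.2% and 6.81%. Dcn, decorin, had signals of 9073, 7915, 7111 and 6352 in the cord and 414, 348, 445 and 436 in the cerebellum (18.5-fold, limma adjusted p = 6.77e-11). Myoc, myocilin, had signals of 3659, 3402, 2901 and 2201 and 30.97, 22.3, 35.9 and 10.2, and Lum and Igfbp6 differed by 3.13 ± 0.16 and 3.44 ± 0.10. The collagen Col3a1 differed by 2.48 ± 0.14 and the laminin Lama2 by 2.15 ± 0.13. Ptgds, Igf2 and Igfbp2, genes of the leptomeninges, were not called (-0.23 ± 0.05, -0.38 ± 0.12 and -0.38 ± 0.08). Without spinal cord acrylamide replicate 1 the count towards the cerebellum was 1. In the cord the sums of the list were 70967 and 71659 on the saline and 66575 and 58149.5 on the acrylamide arrays.

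Choroid plexus and ependyma genes did not go one way. Of 14 members, 5 (35.7%) were called higher in the cerebellum and 1 (7.14%) in the cord, against 6.81% and 14.2% of all genes. The other 8 were not called. The median was 0.30, and 8 of the 14 differences were above 0. Ttr, transthyretin, had signals of 13811, 18039, 14536 and 16308 in the cerebellum and 145, 107, 127 and 75.9 in the cord, and Otx2 407, 338, 328 and 308 and 0.818, 0.824, 1.39 and 1.21. Ttr was at least 127-fold and Otx2 at least 3.12-fold higher in the cerebellum (limma adjusted p = 1.67e-11 and 1.60e-09). Folr1, Cldn2 and Kcne2 were called in the same direction (-1.91 ± 0.14, -2.11 ± 0.29 and -1.14 ± 0.16), and Mia was the gene called towards the cord (1.02 ± 0.13), a call lost without cerebellum saline replicate 2 (0.95) or spinal cord saline replicate 1 (0.97). The count towards the cord was 0 to 2 with 1 array left out, and that towards the cerebellum 5. The uncalled members were Enpp2, also a gene of oligodendrocytes, Foxj1, the factor of ciliated cells, Dynlrb2, Tmem212, Rarres2, Sostdc1, Aqp1 and Sulf1, at 0.54, 0.67, 0.55, 0.98, 0.82, 0.37, 0.22 and -0.36.

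Of 23 endothelial and mural genes, 4 (17.4%) were higher in the cord and 0 in the cerebellum, against 14.2% and 6.81% of all genes. No overlap was seen for 20 of the 23, all with the cord higher, and 6586 of all 20569 probe sets were so separated. The median was 0.72. Ramp2, a receptor partner of endothelium, had signals of 1277, 1261, 1206 and 1285 in the cord and 394, 428, 407 and 416 in the cerebellum (1.57 ± 0.06). The barrier genes Slc2a1, Slco1a4 and Cldn5 were not called (0.97 ± 0.05, 0.72 ± 0.05 and 0.84 ± 0.07). Of 4 red blood cell genes 3 were higher in the cord, among them Alas2, which starts haem synthesis (2.06 ± 0.22), and Hbb, the beta-globin, was not called (0.95 ± 0.12) unless cerebellum saline replicate 2 (1.09) or spinal cord saline replicate 1 (1.04) was left out.

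Of 18 cell cycle genes, 4 (22.2%) were higher in the cord and 2 (11.1%) in the cerebellum, against 14.2% and 6.81% of all genes. Of the 18, 6 had passed the filter through the cord alone and 2 through the cerebellum alone. Without spinal cord acrylamide replicate 2 the count towards the cord was 7. The D-type cyclins Ccnd1 and Ccnd2 had differences of 2.04 ± 0.11 and 2.08 ± 0.13. Mki67 and Top2a, genes of dividing cells, had signals near the filter's in the cord, at 124, 304, 234 and 51.99 and 116, 191, 158 and 76.2, and under the filter on every cerebellum array. The replication genes Mcm4 and Tyms were higher in the cerebellum (-1.33 ± 0.09 and -1.31 ± 0.16), and Pcna overlapped (0.20 ± 0.06).

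Skeletal muscle genes rested on 1 array. Acta1, the actin of skeletal muscle, had signals of 13974, 375, 209 and 212 in the cord and 193, 152, 158 and 160.4 in the cerebellum. Ckm, creatine kinase of muscle, had signals of 6876, 108, 61.6 and 60.9 and 61.8, 63.9, 42.4 and 36.4. Spinal cord saline replicate 1 was the high array in both. The 19 members summed to 71372.5 on that array, to 7527 to 8619 on the other cord arrays and to 5780.5 to 7881 in the cerebellum. Of the 19, 5 were called higher in the cord and 1, Ryr1, in the cerebellum (-1.44 ± 0.35). The count of 5 was 2 without either cerebellum saline array, 9 without spinal cord saline replicate 2, and 2 in limma without a filter, without the intensity trend or with robust eBayes. Without spinal cord saline replicate 1, 9 passed the filter, 2 were called towards the cord and 1 towards the cerebellum, and the median fell from 1.38 to 0.16. The members called towards the cord without it were Pygm (1.18), a glycogen phosphorylase, and Tnnc2 (3.19), a troponin. Over all 8 arrays, 2 further probe sets of Pygm were not called (0.70 and 0.995). Of the fat cell list, 1 gene, Lpl, passed the filter and it was not called (0.23 ± 0.16). Without that array, no other list that held a call moved its count by over 1.5 times, with counts of 35, 27, 12 and 23, as over all 8 arrays, towards the cord for the oligodendrocyte, myelin lipid, Schwann cell and microglia lists.

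The design crosses tissue with treatment, which asks whether the difference between the regions depended on acrylamide. In saline rats alone, 2559 probe sets were higher in the cord and 2133 in the cerebellum, and in acrylamide rats alone 2485 and 2162. Of these, 2138 and 1775 were called in both, 0 were called in opposite directions, and all 2496 and 2117 calls over the 8 arrays had the same sign in either treatment. The 2 differences share no array, but both came from the same fit over the 8 arrays, with a shared filter and variance. The 2 sets of calls are therefore not independent. A call over the 8 arrays rests on the mean of the 2 differences, so the same sign in either treatment was close to given. The test of the difference itself, the interaction of tissue and treatment in limma, called 0 of 20569 probe sets (0%) at an adjusted p of 0.05, and 851 at an unadjusted p under 0.05, where 1028 would be expected. The smallest adjusted p was 0.146.

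The 6 genes with the smallest interaction p did not pass. Nr4a3, an orphan nuclear receptor induced by activity, had signals of 1114, 920.3, 209.96 and 148 in the cerebellum and 176, 210.3, 149.6 and 156 in the cord (interaction 2.11 ± 0.25 on the log2 scale, limma adjusted p = 0.146). Its acrylamide arrays were the lower in the cerebellum. Gpt2, a mitochondrial alanine transaminase, had signals of 54.7, 66.3, 254 and 259 in the cerebellum and 308, 355, 368 and 369 in the cord (-1.69 ± 0.21, limma adjusted p = 0.146), and its acrylamide arrays were the higher in the cerebellum. Pmp2, Macroh2a1, Gnal and Gsta4 followed, at -1.18 ± 0.19, -0.64 ± 0.11, 1.02 ± 0.18 and -0.87 ± 0.16. Without spinal cord saline replicate 2, which leaves the array with the muscle genes as the lone saline cord array, the count rose from 0 to 27, most of them genes of skeletal muscle such as Ckm, Acta1 and Myl1. Without spinal cord acrylamide replicate 2 it was 1, Grm8, which had signals of 481, 422, 33.004 and 588 in the cord.

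**Figure D5:**
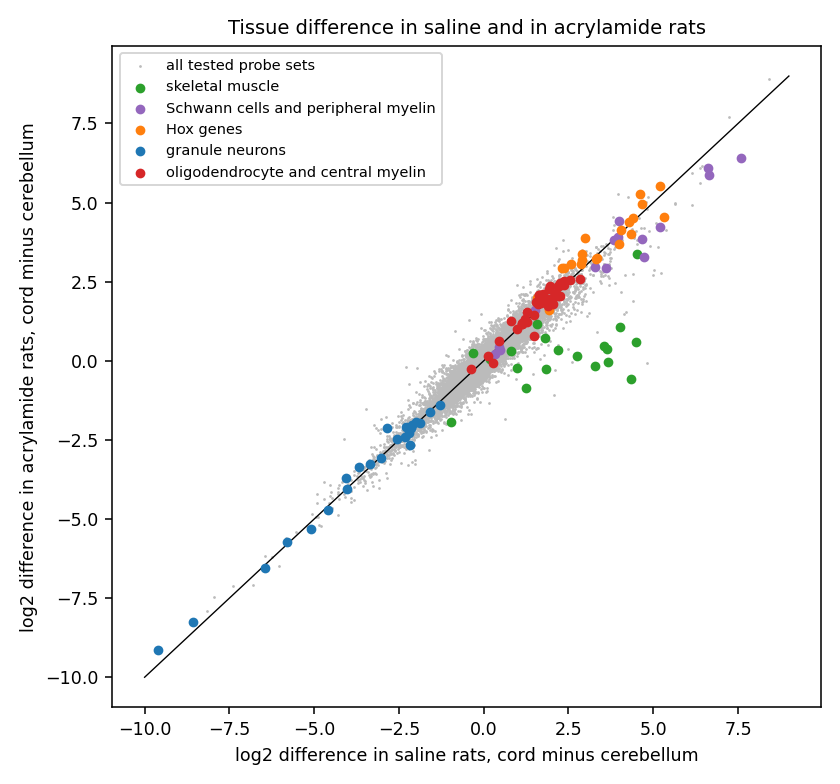
Difference between spinal cord and cerebellum in log2(signal + 16) in saline rats (horizontal) and in acrylamide rats (vertical) for all 20569 tested probe sets (grey) and for 5 gene lists (colours); the line marks equal differences. The granule neuron, Hox and oligodendrocyte genes lie along the line. Of the Schwann cell genes, Pmp2 (7.58 in saline, 6.40 in acrylamide rats) and Prx (6.64 and 5.86) lie below it, as do most skeletal muscle genes.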

How the data were processed

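Biotin-labelled cRNA was hybridised to 1-colour Affymetrix rat arrays, per the labels. The authors deposited 1 intensity value per probe set and array, and the submitters' processing notes name GCOS 1.1. How probes were summarised, corrected for background and scaled is not given in the sources used here. With 2% trimmed at either end, array means came to 500.1, a scaling of whole arrays to which all differences are relative.

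Control probe sets (57 of 31099) were left out. Symbols came from the platform annotation, updated through RefSeq (GRCr8): 20826 probe sets had 1 symbol, 436 several and 9780 none, and those were left unnamed. A gene in a list is its probe set with the highest mean. Probe sets ending in _a_at, _s_at or _x_at can bind several transcripts. Probe sets with a mean signal above 110 in either tissue were kept, and 16 was added before log2. Limma 3.58.1 under R 4.3.3 (lmFit, eBayes with an intensity trend) was fitted to the 8 arrays, with 5 residual and 5.97 prior degrees of freedom and a median SE of 0.10. The script was tested on simulated data. The number of arrays limits the precision.

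Named genes were the 12 largest differences in each direction without overlap, per list up to 8 called members in each direction by p and up to 4 uncalled by signal, the 4 markers, the 6 smallest interaction p, markers of neighbouring tissues, and disagreeing probe sets; others are named as exceptions. The members and lists were chosen with earlier results of these data known. Replicate numbers are shared between the tissues in the labels. The difference between replicates 1 and 2 correlated between cord and cerebellum at 0.124 over probe sets in saline and 0.249 in acrylamide pools, and a fit with the replicate number as a block was an alternative. The other alternatives were the scaling, pseudocount, filter, variance model, thresholds, treatment term, arrays in the fit, 1 probe set per gene, and each array left out in turn.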

Additional observations from a re-analysis of the deposited data

Results flagged for a closer look

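In 36 of 523 groups of 4 arrays (a named gene in 1 tissue), 1 array stood further from the other 3 than Dixon's test allows at 95%; chance gives about 1 in 20. No explanation was tested. Of the 36, 10 were on spinal cord saline replicate 1. Spinal cord saline replicate 1 lay above the other 3 arrays for Chgb (3153 against 2800.4 to 2851), Gad2 (209 against 165 to 170.2), Grin1 (1279 against 1063 to 1082), Mia (199 against 181 to 184), Tnnc2 (5416 against 552 to 606), Casq1 (1141 against 113 to 127), Atp2a1 (5854 against 64.3 to 94.6), Acta1 (13974 against 209 to 375) and Ckm (6876 against 60.9 to 108). Spinal cord saline replicate 1 lay below its fellows for Slc2a1, with a signal of 2304 against 2525 to 2539.6. Cerebellum acrylamide replicate 1 lay above its fellows for Sptbn4, with a signal of 1897 against 1743 to 1767. Cerebellum acrylamide replicate 1 lay below the other 3 arrays for Plk5 (1888 against 2319 to 2392), Calb1 (11192 against 12126 to 12232) and Igfbp6 (113 against 155 to 165). Cerebellum acrylamide replicate 2 lay above its fellows for Kit, with a signal of 909 against 703 to 720.1. Cerebellum saline replicate 1 lay above the other 3 arrays for Gabra2 (199.7 against 95.7 to 106) and Slc1a3 (14205 against 12373 to 12561). Cerebellum saline replicate 1 lay below the other 3 arrays for Spp1 (665 against 848 to 889) and Ctss (1549.9 against 2067 to 2142). Cerebellum saline replicate 2 lay above the other 3 arrays for Neurod1 (16144 against 13496 to 13596), Grm2 (455 against 285 to 295), Kcnab2 (1416 against 1252 to 1266), Nptx1 (7716 against 6709.5 to 6809) and Nrxn2 (2219.7 against 1904 to 1946). Spinal cord acrylamide replicate 1 lay below the other 3 arrays for Bche (70.1 against 129 to 145), Glra2 (246 against 285 to 290.3), Slc6a11 (178 against 308 to 323), Scn3a (358 against 378 to 382), Hoxd9 (521 against 581 to 586) and Slc7a10 (889 against 1157 to 1172). Spinal cord acrylamide replicate 2 lay above the other 3 arrays for Grin3b (189.8 against 177 to 178), Grin2c (781 against 621 to 632) and Cbln1 (1025 against 610.1 to 644). Spinal cord saline replicate 2 lay below the other 3 arrays for Zfhx4 (269 against 293 to 299), Scg3 (3631 against 4052 to 4123) and Htr2c (3586 against 3742 to 3762).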

How the results depend on the processing

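With 1 probe set per gene, 1556 genes were higher in the cord and 746 in the cerebellum, against 2496 and 2117 probe sets, so the share of calls towards the cord was 67.6% in place of 54.1%. Fewer features were tested, and the cause of the shift in that share was not tested. Under quantile normalization, median centring or another filter that share was 52.4% to 56.4%. A pseudocount of 64 gave 1905 and 1564 calls and one of 1 gave 2729 and 2345. Leaving out each array in turn gave 2473 to 2548 calls towards the cord, 2079 to 2174 towards the cerebellum and 0 to 27 for the interaction (27 without spinal cord saline replicate 2 and 1 without spinal cord acrylamide replicate 2). The replicate block gave 2500 and 2118 calls and 0 for the interaction, and changed the call of 1 named gene, Acta1, which passed with it. All 308 named genes were recomputed under 25 alternatives, which gave 7672 values: 7507 kept direction and side of the threshold, 96 lost a call, 35 gained one, and 34 values of uncalled genes changed sign. No called value reversed. A pseudocount of 64 ended 19 calls and the fit over all 12 arrays 7. Of the named genes, the muscle genes Myl1, Casq1 and Atp2a1 lost or gained a call under the most alternatives. In all, 259 genes kept their side of the threshold and direction throughout. Genes under a signal of 110 in both tissues were not tested, and folds against a dim tissue are lower bounds.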
